A study of Mus musculus with 7 samples.

Results

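The 9 genes described here encode exchange factors of ARF GTPases: the cytohesins Cyth1, Cyth2, Cyth3 and Cyth4, and Arfgef1, Arfgef2, Gbf1, Iqsec1 and Psd4. They were found by gene symbol, and all 9 were among the 16156 genes measured. The genes were selected on measured values: the set was built around Cyth3, which had the smallest p-value of all genes in the comparison of ACLY knockout with wild type cells, so the difference of Cyth3 is given as a description and not as a test. RNA sequencing of total RNA covered 7 libraries of CD8 T cells, 3 labelled ACLY KO and 4 labelled WT, all of strain C57Bl/6. The cells carried the OT-I T cell receptor, which recognises an ovalbumin peptide, and a congenic mark. They were placed in C57Bl/6 hosts 1 day ahead of an infection with ovalbumin-expressing Listeria monocytogenes, and were recovered 6 days after it. How the knockout was made is not given in the sources used here, nor is it stated that each library is its own mouse, so the p-values cover the spread from library to library, which may be technical. ACLY, ATP citrate lyase, makes cytosolic acetyl-CoA from citrate.

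ARF GTPases are membrane switches that are inactive when they hold GDP and active when they hold GTP. Exchange factors carry a Sec7 domain that removes GDP so that GTP can bind, and GTPase-activating proteins turn the switch off again. Active ARF recruits vesicle coats at the Golgi, and at the cell surface it acts on actin, phosphoinositides and integrin traffic. Cytohesins add a PH domain that binds phosphoinositides such as PIP3, the product of PI3 kinase, which T cells make after receptor stimulation. Cytohesin-1 is also known for binding the tail of the beta 2 integrin chain of LFA-1 in leukocytes.

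The libraries differed in depth and in make-up, and these values stand beside every difference below. Gene counts summed to between 37473484 and 39692359 in the KO group and between 45288353 and 75586011 in the WT group. Acly itself was at 62.0 to 262 CPM (counts scaled to library size, with TMM factors) in the KO group and at 276 to 414 CPM in the WT group. Trbv12-1 and Trbv12-2, the segments of the V beta family used by the OT-I receptor, took 46.7%, 23.2% and 61.8% of all Trbv counts in the KO replicates 1 to 3, against 84.5% in WT replicate 4 and 99.0% to 99.2% in the other WT libraries. The 6 defining CD8 T cell markers, among them Cd3e and Cd8a, were present in every library and summed to 2368 CPM in KO replicate 1 and to between 5987 and 7096 CPM in the other 6 libraries. All 8 B cell markers were measured, and their sum was 8572, 1101 and 625 CPM in the KO replicates 1 to 3 and 244 to 676 CPM in the WT group. In 7 of the 8 each KO library lay above each WT library, against 9.46% of all genes. Pax5, Ms4a1 and Blk were at 0 counts in 3, 2 and 1 of the WT libraries. The 8 myeloid markers summed to 50.3 to 1085 CPM in the KO group and 20.1 to 40.4 CPM in the WT group. Each KO library lay above each WT library in 6 of the 8, against the same 9.46% of all genes, and Cd14 was at 0 in WT replicate 4. Itgam was lower on average in the KO group, at 9.56 against 19.4 CPM, and its groups overlapped. The 5 red cell markers summed to 238 to 46016 CPM and 1.48 to 465 CPM. Of 4 CD4 T cell markers 3 were measured. Their sums were 9.22 to 186 CPM in the KO group and 9.29 to 34.1 CPM in the WT group. Cd4 itself was at 110, 1.19 and 6.19 CPM in the KO replicates 1 to 3. In the WT group it reached at most 0.157 CPM and was at 0 in 2 libraries. Zbtb7b and Cd40lg overlapped between the groups. The 8 naive T cell markers summed to 4191, 8894 and 7248 CPM in the KO replicates 1 to 3 and to 4062 to 6099 CPM in the WT group. Their part in the differences below was not tested except where a value is given, and in such bulk samples fewer cells of a type and less RNA per cell cannot be told apart.

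Cyth3, or GRP1, an exchange factor whose PH domain binds PIP3 tightly, was much more abundant in the KO libraries. It lies on the plus strand of chromosome 5 in mm10, from 143622447 to 143710250. Its level was 36.7, 57.9 and 44.7 CPM in the KO replicates 1 to 3 and 7.10, 6.48, 8.45 and 9.87 CPM in the WT replicates 1 to 4. The lowest KO library was thus above the highest WT library, WT replicate 4. These levels rest on 1373, 2487 and 1745 counts in the KO group and on 515, 289, 440 and 582 counts in the WT group, although every WT library was sequenced more deeply. The means were 46.4 ± 10.7 CPM (SD, n = 3) and 7.98 ± 1.505 CPM (SD, n = 4), a ratio of 5.82 and a fitted log2 difference of 2.54 ± 0.24 (SE). This rank chose the gene: next in the ranking was Trio, with a log2 difference of 3.26 ± 0.35 (SE). Over 15 alternatives of scaling, filter, test and libraries the log2 difference of Cyth3 lay between 2.35 and 2.82.

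**Figure D1:**
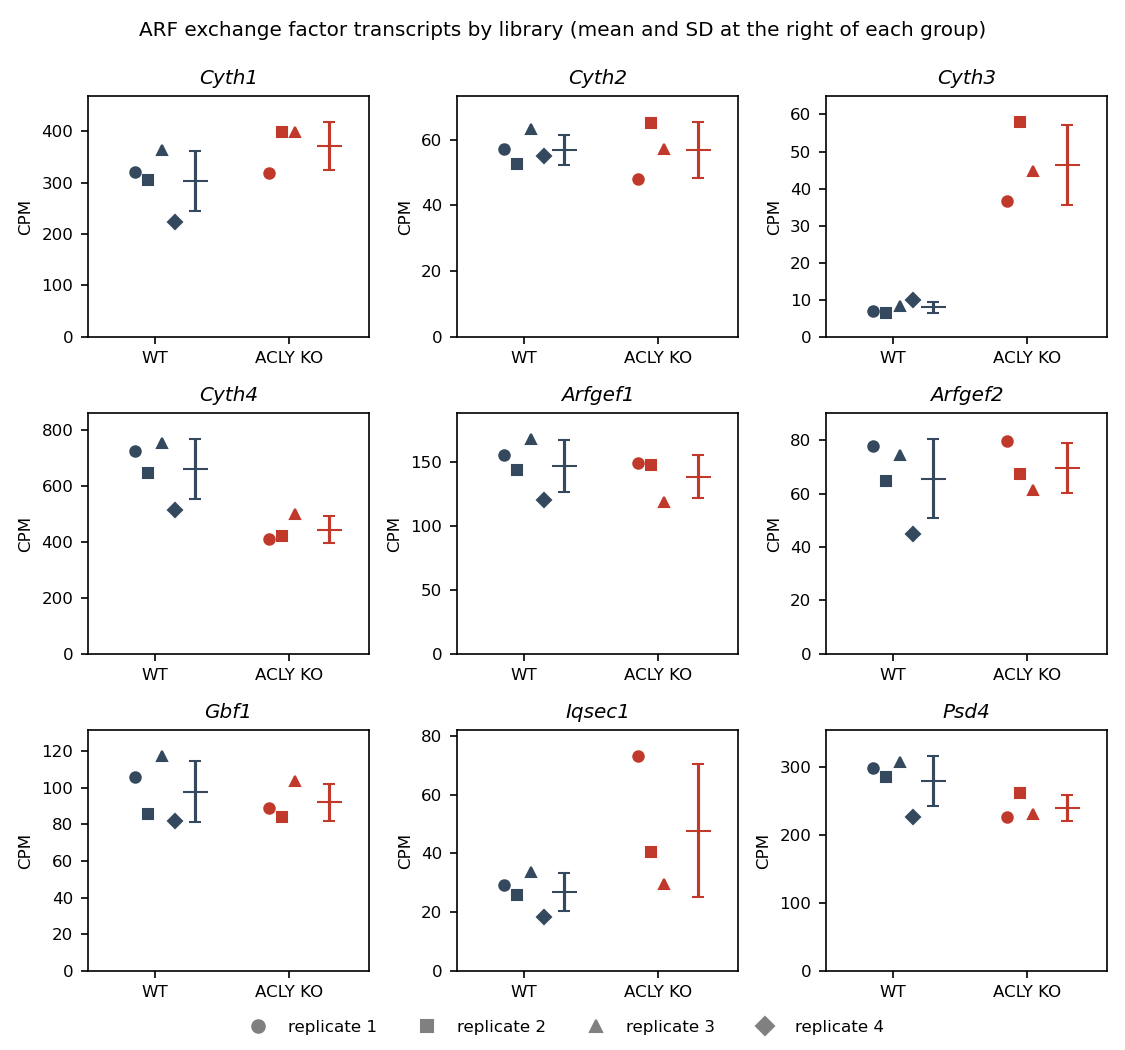
CPM of each of the 9 exchange factors (y axis, from 0) in the 4 WT and 3 ACLY KO libraries (x axis); marker shapes stand for replicate numbers, and the bar at the right of each group is the mean with its SD. Cyth3 lies between 36.7 and 57.9 CPM in KO and between 6.48 and 9.87 CPM in WT, and Cyth4 is the other gene whose groups do not overlap.

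The order of the KO libraries for Cyth3 can be set beside their make-up. KO replicate 1, which had the highest B cell, myeloid and red cell marker sums, had the lowest Cyth3 level of the KO libraries. Its naive T cell marker sum of 4191 CPM was within the WT range, while its Cyth3 level was not. KO replicate 2, with the lowest OT-I receptor share and the highest naive marker sum, had the highest Cyth3 level. Among the WT libraries, replicate 4, with the lowest receptor share, had the highest. Without KO replicate 1 the log2 difference was 2.68, and with WT replicate 4 removed as well it was 2.82.

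**Figure D2:**
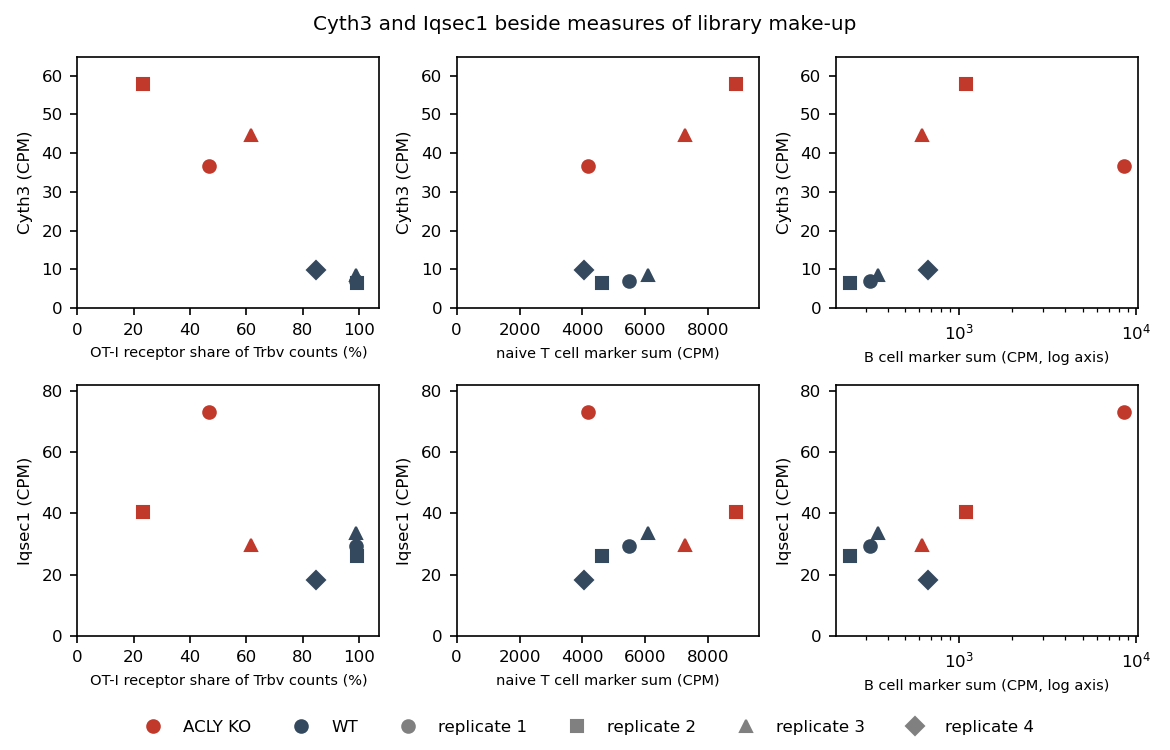
CPM of Cyth3 (upper row) and Iqsec1 (lower row) in each of the 7 libraries against the OT-I receptor share of Trbv counts in percent, the summed CPM of 8 naive T cell markers, and the summed CPM of 8 B cell markers on a log axis; colours give the genotype and shapes the replicate. KO replicate 1 has the highest B cell sum, 8572 CPM, the lowest Cyth3 of the KO libraries and the highest Iqsec1, 73.1 CPM.

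The 4 cytohesins are close relatives, so it was asked how much sequence their transcripts share. In GENCODE M21 the longest identical run between a Cyth3 transcript and any other cytohesin was 32 bases, shared with Cyth2 and coding in both genes. It is shown because a read longer than this run cannot match both in full without a mismatch. How reads with mismatches were placed was not examined. With Cyth1 and Cyth4 the longest runs were 22 and 21 bases. None of the 9 genes shares exon sequence with another measured gene, although in the annotation Cyth2, Gbf1 and Iqsec1 overlap exons of the gene models Gm45444, Gm16726 and Gm44123.
Cyth2 and Cyth3, shared coding run: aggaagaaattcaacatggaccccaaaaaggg

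The promoters of the cytohesins whose levels did not overlap between the groups, Cyth3 and Cyth4, are shown so that their letters can be compared. They are RefSeq windows in GRCm38.p6, both on the plus strand, of 250 bases before and 50 bases after the start, at chr5:143622197-143622496 and chr15:78596797-78597096. Capitals mark matches, on either strand, to any of 9 motifs.
Cyth3 promoter: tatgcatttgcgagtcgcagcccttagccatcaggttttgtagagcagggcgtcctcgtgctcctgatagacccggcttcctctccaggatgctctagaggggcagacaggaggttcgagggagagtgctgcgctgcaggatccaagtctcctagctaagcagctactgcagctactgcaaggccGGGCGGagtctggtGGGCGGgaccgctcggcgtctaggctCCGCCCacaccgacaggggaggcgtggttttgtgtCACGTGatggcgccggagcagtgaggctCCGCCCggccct
Cyth4 promoter: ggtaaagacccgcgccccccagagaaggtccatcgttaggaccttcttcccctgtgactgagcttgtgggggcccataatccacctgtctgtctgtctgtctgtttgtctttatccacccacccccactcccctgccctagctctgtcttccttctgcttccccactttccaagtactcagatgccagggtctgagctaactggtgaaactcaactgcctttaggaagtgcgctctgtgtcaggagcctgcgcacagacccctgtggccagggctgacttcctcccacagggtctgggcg
The motifs were the E-box CACGTG, the GC box GGGCGG, the CCAAT box CCAAT, forkhead GTAAACA, TCF/LEF CTTTGA, ETS CCGGAAG, KLF CACACCC, CRE TGACGTCA and AP-1 TGACTCA, none of which contains another. The Cyth3 window holds 4 GC boxes and 1 E-box, which begins 10 bases after the start, and the Cyth4 window holds none of the 9. Of 32817 promoter windows, 7.15% hold the E-box, 35.6% the GC box, 37.4% the CCAAT box, 3.65% the forkhead, 16.0% the TCF/LEF, 8.86% the ETS, 7.95% the KLF, 1.79% the CRE and 5.20% the AP-1 motif. Among the 13 windows of the 9 genes, 8 held the GC box. They belonged to 6 genes: Arfgef2, Cyth1, Cyth2, Cyth3, Iqsec1 and Psd4. The E-box was found in windows of Cyth3, Arfgef2 and Psd4, and the forkhead and KLF motifs in none. Arfgef2 and Psd4 had log2 differences of 0.08 and -0.22, and a link of the E-box to any of these levels was not tested. The motifs found are matches of letters and not shown to be sites.

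Cyth4, the cytohesin found mainly in blood cells, was lower in the KO libraries. It lies on the plus strand of chromosome 15, from 78597047 to 78622019. Its level was 409.8, 423 and 499 CPM in the KO replicates 1 to 3 and 725, 649, 756 and 516 CPM in the WT replicates 1 to 4. Each KO library was below each WT library, by little between KO replicate 3 and WT replicate 4. The means were 444 ± 48.2 CPM (SD, n = 3) and 661 ± 107 CPM (SD, n = 4), with a log2 difference of -0.57 ± 0.17 (SE) that missed the threshold of edgeR's quasi-likelihood test (adjusted p = 0.148). DESeq2 and limma voom with quality weights called it (adjusted p = 0.0343 and 0.0292), and the adjusted p ranged from 0.0292 to 0.363 over 15 alternatives. KO replicate 1, with the lowest sum of CD8 T cell markers, had the lowest Cyth4, and its part in the difference was not tested.

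Cyth1, the cytohesin known as a partner of LFA-1, leaned upward with overlapping groups. It lies on the minus strand of chromosome 11, from 118132019 to 118248592. Its level was 318, 398 and 398 CPM in the KO replicates 1 to 3 and 320.1, 306, 364 and 223 CPM in the WT replicates 1 to 4. KO replicate 1 was within the WT range, and the other KO libraries were above it. The log2 difference was 0.29 ± 0.19 (SE; edgeR adjusted p = 0.456). Cyth2, or ARNO, which acts on ARF1 and ARF6, lies on the minus strand of chromosome 7, from 45806637 to 45814581. It was at 48.1, 65.1 and 57.2 CPM in the KO replicates 1 to 3 and 57.3, 52.5, 63.2 and 55.1 CPM in the WT replicates 1 to 4. All 4 WT libraries were thus inside the KO range, and the log2 difference was -0.0050 ± 0.15 (SE; edgeR adjusted p = 0.9903), with a sign that changed with the scaling.

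Ratios within a library do not depend on the scaling between libraries. The ratios given here did not overlap between the genotypes. Per 1000 counts of Cyth4 there were 776, 939 and 797 counts of Cyth1 in the KO replicates 1 to 3, against 441, 472, 481 and 432 in the WT replicates 1 to 4. WT replicate 4 lay with the other WT libraries here. Per 1000 counts of Cyth2 there were 763, 889 and 781 counts of Cyth3 in the KO group and 124, 124, 134 and 179 in the WT group. Counted per kilobase of joined exons, Cyth4 made up 35.3%, 30.6% and 34.9% of the cytohesin pool in the KO replicates 1 to 3 and 47.1% to 49.1% in the WT group. Cyth1 made up 53.0% to 55.7% in the KO group and 40.1% to 43.8% in the WT group. Cyth3 was a small part of the pool in either genotype, with 2.53%, 3.35% and 2.50% in the KO group and 0.381% to 0.734% in the WT group. The share of Cyth2 overlapped, at 8.77% to 10.3% and 8.46% to 11.2%. The pool as a whole was 154 to 189 CPM per kilobase in the KO group and 142 to 212 in the WT group, so the summed cytohesin level overlapped, as did the Cyth2 share, while the shares of Cyth1, Cyth3 and Cyth4 did not. These count ratios and shares use the contrast that chose Cyth3, so they are a description and are given without a test.

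**Figure D3:**
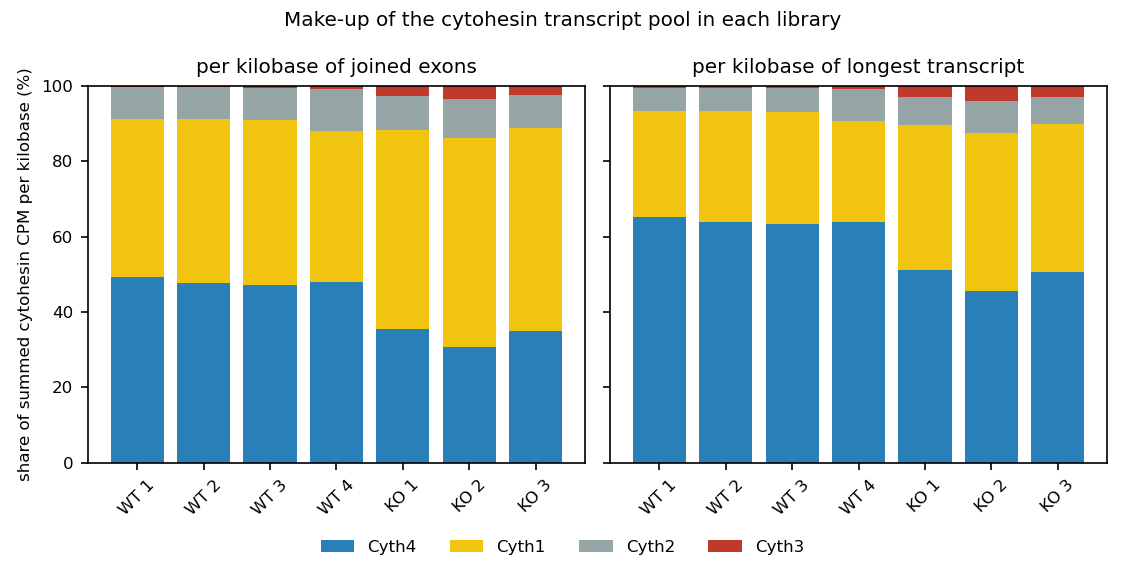
Share of each cytohesin, in percent, in the summed cytohesin CPM per kilobase of each library (x axis), with lengths from joined exons (left) or from the longest transcript (right). With either length the Cyth4 share is lower and the Cyth1 and Cyth3 shares are higher in each KO library than in each WT library, with Cyth4 at 30.6% to 35.3% in KO and 47.1% to 49.1% in WT on the left.

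Iqsec1, or BRAG2, which acts on ARF6 in the uptake of integrins, was higher on average in the KO group, mainly through KO replicate 1. It lies on the minus strand of chromosome 6, from 90656088 to 90988685. Its level was 73.1, 40.4 and 29.7 CPM in the KO replicates 1 to 3 and 29.4, 25.9, 33.6 and 18.3 CPM in the WT replicates 1 to 4. KO replicate 3 was within the WT range. The log2 difference of 0.83 ± 0.34 (SE) did not pass edgeR's test (adjusted p = 0.243). It was 0.39 without KO replicate 1 and 0.26 with WT replicate 4 removed as well. The KO libraries had the same order for Iqsec1 as for the B cell marker sum of 8572, 1101 and 625 CPM, whose part was not tested. Psd4, or EFA6B, an exchange factor of ARF6 at the plasma membrane, lies on the plus strand of chromosome 2, from 24367580 to 24414954. It was at 226, 262 and 230.4 CPM in the KO replicates 1 to 3 and 298, 285, 308 and 226 CPM in the WT replicates 1 to 4. WT replicate 4 was within the KO range and the other WT libraries were above it, with a log2 difference of -0.22 ± 0.14 (SE; edgeR adjusted p = 0.461).

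The large exchange factors of the Golgi differed little. Arfgef1 and Arfgef2, also called BIG1 and BIG2, act at the trans-Golgi network and are targets of brefeldin A. Arfgef1 (chromosome 1, minus strand, 10137571 to 10232670) was at 149, 148 and 119 CPM in the KO replicates 1 to 3 and 156, 144, 168 and 120.1 CPM in the WT replicates 1 to 4. Arfgef2 (chromosome 2, plus strand, 166805588 to 166898052) was at 79.7, 67.3 and 61.3 CPM in the KO group and 77.9, 64.9, 74.5 and 44.9 CPM in the WT group. Gbf1, the factor that recruits the COPI coat at the cis-Golgi (chromosome 19, plus strand, 46152509 to 46286510), was at 88.6, 84.0 and 103 CPM in the KO group and 106, 85.8, 117 and 81.8 CPM in the WT group. The groups overlapped for all of these genes. Their log2 differences were -0.08 ± 0.15, 0.08 ± 0.21 and -0.09 ± 0.16 (SE), with edgeR adjusted p-values of 0.816, 0.875 and 0.826. The sign of each changed under at least 1 alternative.

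**Figure D4:**
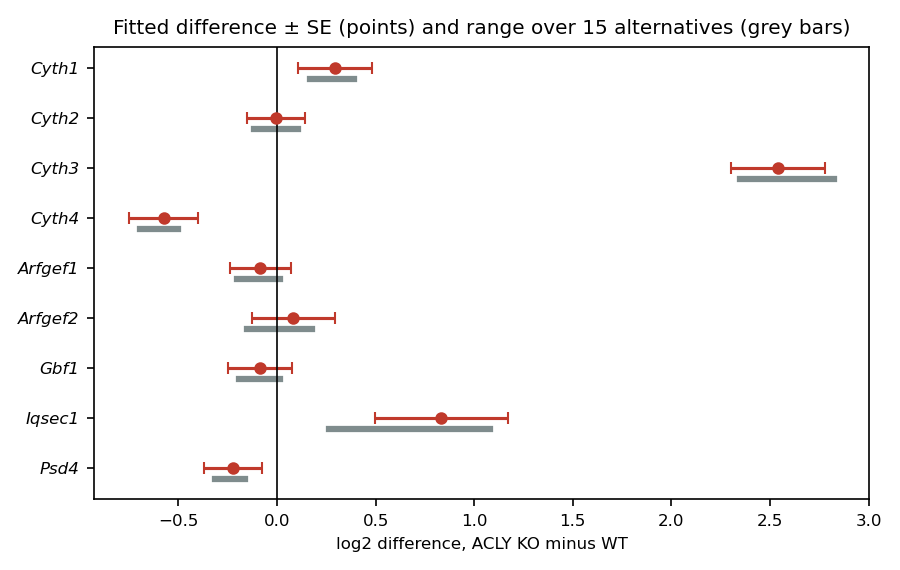
Fitted log2 difference of each exchange factor, ACLY KO minus WT (x axis), as a point with its SE, and below it as a grey bar the range over 15 alternatives of scaling, filter, test and libraries. Cyth3 stays between 2.35 and 2.82, Cyth4 between -0.69 and -0.50, and the bars of Cyth2, Arfgef1, Arfgef2 and Gbf1 cross 0.

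Over the 9 genes edgeR's quasi-likelihood test with Benjamini-Hochberg adjustment over all genes called 0, as it did over all 16156 genes (0%). With a p below 0.05 before adjustment it had 2 higher, Cyth3 and Iqsec1, and 1 lower, Cyth4, where 18.8% of all genes were counted. DESeq2 called 1 higher and 1 lower of the 9, Cyth3 and Cyth4, where it called 9.83% of genes, and limma voom with quality weights called the same pair, where it called 7.02% (5.33% higher and 1.69% lower). With both KO replicate 1 and WT replicate 4 left out, edgeR called this pair too, where 9.63% of genes were called (5.43% higher and 4.2% lower). With a single library left out it called Cyth3 in 4 of 7 cases: without KO replicate 1 (0.984% of genes called, 0.687% higher and 0.297% lower), KO replicate 2 (0.743%, 0.73% higher and 0.0124% lower), KO replicate 3 (1.17%, 0.879% higher and 0.291% lower) or WT replicate 4 (0.824%, 0.69% higher and 0.134% lower). The groups did not overlap for Cyth3 and Cyth4, 2 of the 9, against 18.5% of all genes, 9.46% above and 9.03% below. The median log2 difference was -0.0050 over the 9 genes and -3.62e-05 over all genes, with 4 of the 9 above 0 and 5 below. Since the contrast chose Cyth3, nothing is read from these counts.

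Per kilobase of joined exons the WT levels ran from Cyth4, at 87.6 ± 14.2 CPM per kilobase (SD, n = 4), to Cyth3, at 0.845 ± 0.159. Between them lay Cyth1 at 77.6 ± 15.1, Psd4 at 23.7 ± 3.10, Cyth2 at 16.5 ± 1.32, Arfgef1 at 13.0 ± 1.79, Gbf1 at 8.99 ± 1.54, Arfgef2 at 7.47 ± 1.69 and Iqsec1 at 2.31 ± 0.559 CPM per kilobase. Neighbours in this order whose library ranges overlapped were Cyth4 with Cyth1, Arfgef1 with Gbf1, and Gbf1 with Arfgef2. In KO Cyth1 led at 95.1 ± 11.8 CPM per kilobase (SD, n = 3), ahead of Cyth4 at 58.8 ± 6.39, and their ranges were apart. Psd4, Cyth2, Arfgef1, Gbf1 and Arfgef2 followed in the same order as in the WT group, and then Cyth3 at 4.92 ± 1.13 and Iqsec1 at 4.11 ± 1.95, whose ranges overlapped. Cyth3 was thus last in the WT group, apart from Iqsec1, and level with Iqsec1 in the KO group. With the longest transcript as length Cyth4 led in KO as well, at 143 ± 15.5 against 117 ± 14.5 for Cyth1, so the order of these genes within KO depends on the length used.

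The spread within groups was small for most of the genes. The coefficient of variation of CPM was 8.10% to 23.1% among the KO libraries for all but Iqsec1, which had 47.4%, and 7.96% to 24.2% among the WT libraries for all 9. WT replicate 4 was the lowest WT library for 7 of the 9, all but Cyth2 and Cyth3, where it was lowest for 40.8% of all genes. For Cyth3 it was the highest WT library. WT replicate 3 was the highest for 7 of the 9, against 25.1% of all genes. In the KO group replicate 1 was the lowest for 5 of the 9, all 4 cytohesins and Psd4, against 29.9% of all genes, and each library was the highest for 3 of the 9.

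The partners of these factors were described from lists of the ARF pathway, and edgeR called 0 genes in each of them. Of the 6 ARF GTPases, all measured, 5 were below 0 (median log2 difference -0.10). In edgeR's test 1 had a p below 0.05 before adjustment, against 18.8% of all genes. This was Arf6, the ARF of the cell surface, at 311, 304 and 366 CPM in the KO replicates 1 to 3 and 497, 532, 484 and 395 CPM in the WT replicates 1 to 4 (log2 -0.55 ± 0.15, SE; edgeR adjusted p = 0.125). Each KO library was below each WT library. DESeq2 called Arf6 lower. Arf1, the main ARF of the Golgi, was at 379 ± 51.7 CPM in the KO group (SD, n = 3) and 433 ± 17.4 CPM in the WT group (SD, n = 4). Of the Sec7 proteins outside the 9 genes 2 of 7 were measured: Psd, a relative of Psd4, at 11.0, 13.4 and 5.12 CPM in the KO group and 3.99 to 5.32 CPM in the WT group, and Fbxo8 at 43.1 ± 12.3 and 47.3 ± 12.1 CPM.

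Of the GTPase-activating proteins of ARF 22 of 23 were measured, with 9 above 0 and 13 below (median log2 difference -0.14). With a p below 0.05 before adjustment edgeR counted 2 higher and 3 lower, against 11% and 7.89% of all genes. DESeq2 called 1 and 2, against 6.54% and 3.29% of all genes. Agfg2 was at 56.0, 49.3 and 44.9 CPM in the KO replicates 1 to 3 and 78.7, 79.4, 78.8 and 115 CPM in the WT group (log2 -0.81 ± 0.18, SE). Acap3 was at 60.5 ± 7.55 CPM in the KO group (SD, n = 3) and 95.2 ± 13.9 CPM in the WT group (SD, n = 4). Neither gene overlapped between the groups, and their edgeR adjusted p-values were 0.0844 and 0.0982. Of the coats and lipid enzymes that active ARF recruits 25 of 27 were measured, with 7 above 0 and 18 below (median -0.15). With a p below 0.05 before adjustment there were 2 higher and 6 lower, and DESeq2 called 1 and 4. In 8 of the 25 all KO libraries lay below all WT libraries, where 9.03% of all genes did. Copb1, a coatomer subunit of the COPI coat, was at 185, 161 and 196 CPM in the KO group and 278, 302, 275 and 248 CPM in the WT group (log2 -0.61 ± 0.13, SE; edgeR adjusted p = 0.0778). Copb2, another subunit, was at 162 ± 7.42 CPM in the KO group and 226 ± 15.5 CPM in the WT group (SD, n = 3 and n = 4).

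Of the proteins known to bind cytohesins 13 of 15 were measured, with 5 above 0 and 8 below (median -0.18), and edgeR counted 1 higher and 3 lower with a p below 0.05 before adjustment. Arl4d, a small GTPase that brings cytohesins to the membrane, was at 19.4, 11.0 and 33.0 CPM in the KO replicates 1 to 3 and 59.8, 56.5, 51.3 and 34.3 CPM in the WT replicates 1 to 4. All KO libraries were below all WT libraries, by little between KO replicate 3 and WT replicate 4. Itgb2, the beta 2 integrin chain, was at 813 ± 240.3 CPM in the KO group (SD, n = 3) and 1356 ± 230.1 CPM in the WT group (SD, n = 4), and KO replicate 3, at 1088 CPM, was just above WT replicate 4, at 1081 CPM. DESeq2 called both lower, and edgeR did not (adjusted p = 0.148 and 0.167). All 16 listed genes of PIP3 synthesis, removal and response were measured, with 10 above 0 and 6 below (median 0.04). The list includes kinases recruited by PIP3, such as Akt1. With a p below 0.05 before adjustment edgeR counted 2 higher and 2 lower, and DESeq2 called 1 higher. Akt1, a kinase recruited by PIP3, was at 230 ± 22.2 CPM in the KO group and 308 ± 28.1 CPM in WT without overlap, and Pik3cb, a catalytic subunit of PI3 kinase, at 21.3 ± 12.2 and 8.95 ± 0.972 CPM (SD, n = 3 and n = 4). The edgeR adjusted p-values were 0.152 and 0.186. Over all genes edgeR counted 11% higher and 7.89% lower with a p below 0.05 before adjustment, and DESeq2 called 6.54% higher and 3.29% lower.

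**Figure D5:**
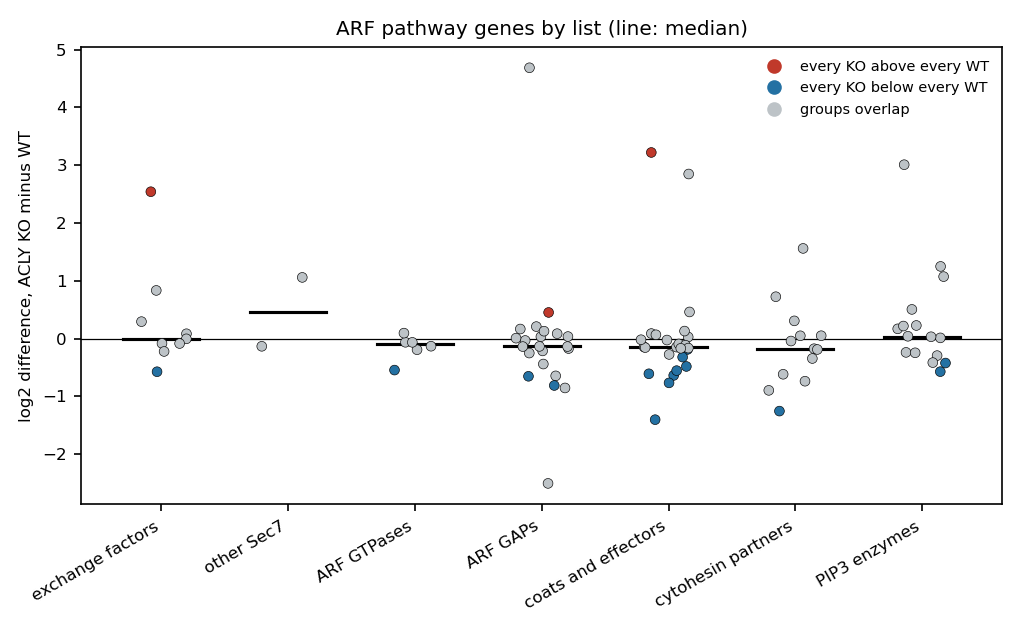
Log2 difference, ACLY KO minus WT (y axis), of each measured gene of 7 lists of the ARF pathway (x axis), with the median of each list as a line; red points have every KO library above every WT library, blue points every KO library below, and grey points overlap. Cyth3, at 2.54, is the red point of the exchange factors, and 8 of the 25 coats and effectors are blue.

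The genes whose pattern over the 7 libraries was most like that of Cyth3 were Ash1l, Igfbp4, Ggt5, Il6st and Srm, by Pearson's r of log2 CPM among 10051 genes with a mean log2 CPM of at least 1. Their r with Cyth3 was 0.993, 0.991, 0.989, 0.981 and 0.981, given as a measure of likeness only, since all 5 were, like Cyth3, higher in all KO than in all WT libraries and lowest in KO replicate 1 among the KO libraries. Ash1l, a histone methyltransferase, was at 92.5, 114 and 108 CPM in the KO replicates 1 to 3 and 54.1, 52.1, 59.4 and 56.4 CPM in the WT group. Il6st, the signalling chain shared by receptors of the IL-6 family, was at 117, 240 and 163 CPM and 45.8 to 52.1 CPM. Srm, the spermidine synthase, was at 55.3, 81.0 and 80.3 CPM and 26.5 to 37.3 CPM. When 1 library was left out, between 0 and 3 of the 5 were still among the 5 most alike, with 0 of them when KO replicate 1 was left out.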

How the data were processed

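Total RNA of 7 libraries of mouse CD8 T cells was sequenced, 3 ACLY KO and 4 WT, grouped by the labels. Per the submitters' processing notes, the tools were Trim Galore 0.6.0, STAR 2.7.8 and DESeq2, and the build was mm10. No source used here gives the read counter, annotation, strand setting or filter. Raw counts of 16156 genes and, in a second table, their log2 CPM were deposited by the authors. These deposited log2 values equalled ones recomputed from the counts (TMM scaling, prior count 2) within 4.99e-09. Of 2810 genes without a symbol 2795 were named from GENCODE M21, which also gave coordinates and lengths.

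CPM were computed here with TMM scaling. Genotypes were compared with edgeR 4.0.16 in R 4.3.3 (quasi-likelihood test, genotype only, threshold 0.05 after Benjamini-Hochberg adjustment over all genes; filterByExpr removed 0 genes), and SEs were derived from that fit. Unscaled, 3 counts were worth between 0.0397 CPM (deepest library) and 0.0801 CPM (shallowest). Alternatives were 2 other scalings, 2 filters, DESeq2 1.42.0, limma 3.58.1 voom, the replicate number as a block, libraries left out, and another gene length. The genes and lists were chosen with earlier results of these data known. Besides the 9 genes and Acly, the rule named in each pathway list the 2 genes with the smallest unadjusted p, the 5 genes most like Cyth3, and in each marker list the gene with the highest mean CPM: Cd8b1 1494 and 1971, Klf2 1651 and 1651, Ighm 1743 and 381, Lyz2 262 and 2.57, Hbb-bs 10196 and 79.0, and Zbtb7b 20.3 and 15.4 CPM in KO and WT. Igfbp4 was at 181 and 6.34 CPM and Ggt5 at 11.0 and 1.43 CPM in KO and WT. Trio and other genes given beside them were chosen after their values were seen. The fits were tested on simulated data, on which, at the spread of these libraries, DESeq2 made more false calls than edgeR or limma voom. Each of these tools missed most of the smaller changes, DESeq2 fewer than edgeR or limma voom.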

Additional observations from a re-analysis of the deposited data

How the results depend on the processing

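The number of genes called depended on the test and on the libraries, and the cause was not tested. DESeq2 called 1032 genes higher and 520 lower, limma voom with quality weights called 860 and 272, and edgeR on the 5 libraries left without KO replicate 1 and WT replicate 4 called 864 and 668. Each of these called 1 of the 9 exchange factors higher, Cyth3, and 1 lower, Cyth4. With 1 library left out edgeR called 0 to 142 genes higher and 0 to 48 lower, 0 to 1 of the 9 higher and 0 lower: Cyth3 was called without KO replicate 1, 2 or 3 and without WT replicate 4. Median-of-ratios and upper-quartile scaling and both filters called 0 genes, as did the fit with the replicate block (0 higher and 0 lower). Whether shared replicate numbers mark pairs of libraries could not be settled from the values. Deviations from the group mean correlated at -0.18, -0.04 and 0.24 between same-numbered KO and WT libraries. Only KO replicate 3 correlated best with its own number. Such deviations cancel out within a group, so these correlations are tied to each other.

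Signs turned for genes near 0. Cyth2, at log2 -0.0050, was at 0.020 with median-of-ratios scaling and with DESeq2, 0.058 with upper-quartile scaling, between -0.115 (without KO replicate 2) and 0.101 (without KO replicate 1) with 1 library left out, turning also at 0.048 without WT replicate 3, and at 0.106 on the 5 libraries. Arfgef2 was at -0.139 with limma voom, -0.065 with the replicate block, between -0.058 (without WT replicate 4) and 0.176 with 1 library left out, turning also at -0.028 without KO replicate 1, and at -0.151 on the 5 libraries. With 1 library left out Arfgef1 lay between -0.166 and 0.014 (without KO replicate 3) and Gbf1 between -0.178 and 0.013 (without WT replicate 3). Over all 15 alternatives their lowest values were -0.205 on the 5 libraries for Arfgef1 and -0.195 with limma voom for Gbf1. Cyth1, Cyth3, Cyth4, Iqsec1 and Psd4 kept their direction in all 15 alternatives. The fewest counts behind any value of the 9 genes were 289, for Cyth3 in WT replicate 2. The depths of the KO and WT libraries did not overlap, so depth and genotype cannot be told apart. The OT-I receptor share did not overlap either, at 23.2% to 61.8% in the KO group and 84.5% to 99.2% in the WT group. Nor did the myeloid marker sum, at 50.3 to 1085 CPM in KO and 20.1 to 40.4 CPM in WT. The share and this sum likewise cannot be told apart from genotype.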

Other observations

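Genes of the ARF pathway with large differences that rested on 1 or 2 KO libraries were chosen after their values were seen. Gga2, an adaptor that sorts cargo at the trans-Golgi network, was at 215 CPM in KO replicate 1, against 16.0 and 7.32 CPM in the KO replicates 2 and 3 and 8.64 to 12.1 CPM in WT. Arrb1, beta-arrestin 1, which binds cytohesins and G protein-coupled receptors, was at 69.7, 20.5 and 10.1 CPM in the KO replicates 1 to 3 and 6.32 to 15.8 CPM in WT. Agap1, a GTPase-activating protein of ARF, was at 7.48 and 8.39 CPM in the KO replicates 1 and 3 and 0.0339 to 0.365 CPM in WT. In KO replicate 2 it had no counts, a limit of 0.0756 CPM (3 counts, unscaled). Pik3r6, an adaptor of PI3 kinase gamma, had the same pattern, with 3.66 and 2.99 CPM in the KO replicates 1 and 3, none in KO replicate 2 and 0.135 to 0.475 CPM in WT. The KO replicates 1 to 3 had B cell marker sums of 8572, 1101 and 625 CPM and red cell sums of 46016, 6430 and 238 CPM, the order seen for Gga2 and Arrb1. Their myeloid marker sums were 1085, 50.3 and 711 CPM, against 20.1 to 40.4 CPM in WT, high in the 2 libraries with counts of Agap1 and Pik3r6. The part of these cells in the differences was not tested.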
